A study of Mus musculus with 2 samples.

Results

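The family of miR-28a, miR-151 and miR-708 is a small group of microRNAs (miRNAs) whose hairpin precursors derive from LINE2, an ancient and no longer mobile class of repeats in mammalian genomes. It was examined in RNA of serum extracellular vesicles (EVs), the membrane particles that cells shed into the blood. The members were chosen by name in the deposited tables, as both arms of each hairpin, and all 6 were found among the 1847 listed miRNAs: mmu-miR-28a-5p, mmu-miR-28a-3p, mmu-miR-151-5p, mmu-miR-151-3p, mmu-miR-708-5p and mmu-miR-708-3p. The 2 libraries came from 7-week-old male mice that had been given tamoxifen at 100 mg/kg for 5 days and sampled at day 3 after the last dose, 1 library for iFIRKO mice (Adipoq-CreERT2; Insr flox/flox) and 1 for controls. In iFIRKO mice the adiponectin promoter drives the tamoxifen-dependent Cre recombinase, so deletion of the insulin receptor is aimed at adipocytes and not at the other cells that shed vesicles into the blood. The label of the control is WT, whereas the methods of the study describe floxed mice lacking the Cre transgene, and both groups received tamoxifen. Each library was prepared from serum pooled over several mice, so the spread between animals was not measured and no test between genotypes could be made.

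A hairpin is cut into a 5p and a 3p arm, either of which may be loaded into an Argonaute protein, and bases 2 to 8 of the loaded arm, the seed, do most of the pairing with target mRNAs. As background, miR-28 is known for repression of the thrombopoietin receptor, miR-151 for promoting cell migration together with its host gene Ptk2 (focal adhesion kinase), and miR-708 for induction under endoplasmic reticulum stress. In the GENCODE annotation of GRCm38 the hairpin Mir28a (chromosome 16, 24827855 to 24827940, plus strand) lay in an intron of Lpp, which encodes a LIM-domain protein of cell adhesions. Mir708 (chromosome 7, 96249424 to 96249532, plus strand) lay in an intron of Tenm4, which encodes a teneurin, a transmembrane protein of cell contacts. Mir151 lay in an intron of Ptk2 and, on the opposite strand, within an intron of the antisense gene 1700085D07Rik. All 3 hairpins were on the strand of the protein-coding gene that holds them.

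RefSeq held mature sequences (GRCm38.p6) for 4 of the 6 members, the arms of miR-28a and miR-708, and miR-151-5p and miR-151-3p are given by name. They are shown with the seed in capitals, since the 5p arms share it and the 3p arms do not.
miR-28a-5p: aAGGAGCUcacagucuauugag
miR-708-5p: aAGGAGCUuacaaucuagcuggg
miR-28a-3p: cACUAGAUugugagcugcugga
miR-708-3p: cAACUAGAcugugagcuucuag

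miR-28a-5p and miR-708-5p carried the same seed, and no other listed miRNA with a sequence had it. Counted from the 5′ end of miR-28a-5p, 16 of 22 aligned bases were identical, and the differences were C9U, G13A, U18G, U19C, G20U and A21G, all downstream of the seed. The 3p arms aligned with an offset of 1 base, so that 17 of 21 bases were identical but the seeds were out of register. Each of these seeds occurred in 1 listed miRNA among those with a sequence. A sequence was at hand for 1596 of the 1858 listed names, not including miR-28c or either arm of miR-151. None of the other names with a sequence shared a run of 12 or more bases with any of the 4 arms. The likeness of miR-151 and miR-28c to these arms was therefore not examined.

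The depth was 3817902 counts in the control-labelled library and 2233498 in the iFIRKO-labelled library, a 1.71-fold difference. Each level is written as a recovered count, followed by its value in CPM, which is the count per 1000000 counts of depth. A miRNA with fewer than 10 counts is listed at a floor value, which stands for less than 2.62 CPM and less than 4.48 CPM, respectively. All 6 members were above the floor in both libraries. No miRNA reports the Insr deletion, so whether the 2 labels are the right way round could not be told from the tables, and every direction here and in the lists of other miRNAs rests on them. With the labels exchanged each ratio would be inverted. The summed ratio of the family would then be 0.781 (95% interval 0.733 to 0.832) and that of miR-708-5p 0.387 (0.287 to 0.519). The 2 miR-708 arms would be the members more than 1.5-fold lower, and so would 66.3% of all miRNAs. Intervals are 95% intervals, and they cover only the counting error of independent counts. Amplified reads may not be independent molecules, and the intervals would then be too narrow. The ratio between the libraries depended on abundance for all miRNAs, and its median log2 value was 1.01 among the 1350 miRNAs whose mean count was between 10 and 100, 0.53 among the 302 from 100 to 1000 and -0.07 among the 118 over 1000. Each member is therefore set beside miRNAs of its own abundance class.

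The family was a minor part of the vesicle RNA and was led by the 3p arm of miR-151. Together the 6 members had 2255 counts in the control-labelled library (591 CPM, 95% Wilson interval 567 to 616) and 1690 counts in the iFIRKO-labelled library (757 CPM, 721 to 794). The summed ratio of the iFIRKO-labelled to the control-labelled library was 1.28 (95% interval 1.20 to 1.37). All 6 ratios were above 1 on the deposited scale, as were those of 88.1% of all listed miRNAs, whereas 5 of the 6 were below 1 with TMM scaling (trimmed mean of M-values), which centres the bulk of all miRNAs on an equal level in both libraries. The 2 miR-708 arms, and no other member, were more than 1.5-fold higher, the threshold of the study, while 66.3% of all miRNAs passed it. None of the members was more than 1.5-fold lower, against 3.03% of all miRNAs. With TMM scaling the shares of all miRNAs were 21.0% higher and 19.5% lower, and 0 members were higher and 2 lower. The median log2 ratio of the members was 0.33, compared with 0.88 over all 1847 miRNAs. Values over all miRNAs, here and below, include those at the floor, 76 in the control-labelled and 35 in the iFIRKO-labelled library. These entered at their listed floor value, which is not a measured level, so some of the ratios counted as higher or lower are not measured either.

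miR-151-3p was the most abundant member. It had 1316 counts (345 CPM, 327 to 364) in the control-labelled library and 1000 counts (448 CPM, 421 to 476) in the iFIRKO-labelled library, which placed it at rank 117 and rank 104 of the listed miRNAs. Its level was higher in the iFIRKO-labelled library and the intervals did not overlap. The ratio was 1.30 (95% interval 1.20 to 1.41), so counting error kept it above 1 and below 1.5-fold. Among the 118 miRNAs with a mean count over 1000, of which 2.54% were more than 1.5-fold higher, 110 had a lower ratio than miR-151-3p. The mean count of miR-151-3p, 1158, lay near the lower limit of that class, so this position depends on where the class begins. Its partner miR-151-5p had 184 counts (48.2 CPM, 41.7 to 55.7) and 131 counts (58.7 CPM, 49.4 to 69.6). The intervals of the 5p arm overlapped, and its ratio of 1.22 (0.965 to 1.53) could not be told from 1 or from 1.5 at this depth. Among the 302 miRNAs between 100 and 1000 counts, where 47.0% were more than 1.5-fold higher, 112 had a lower ratio than this arm.

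miR-28a was represented almost entirely by its 3p arm. miR-28a-3p had 590 counts (155 CPM, 143 to 168) in the control-labelled library and 364 counts (163 CPM, 147 to 181) in the iFIRKO-labelled library. These levels overlapped, and the ratio was 1.05 (0.923 to 1.20), the lowest of the family. Within its abundance class, 78 of 302 miRNAs had a lower ratio. miR-28a-5p, the arm with the shared seed, had 38 counts (9.95 CPM, 7.25 to 13.7) and 26 counts (11.6 CPM, 7.94 to 17.1). It was the scarcest member in both libraries, and its ratio of 1.17 (0.682 to 1.98) was too imprecise to place on either side of 1. In the class between 10 and 100 counts, where 76.7% of miRNAs were more than 1.5-fold higher, 102 of 1350 had a lower ratio than miR-28a-5p.

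The arms of miR-708 had the largest ratios of the family, and the 5p arm was the only member whose interval lay above 1.5. miR-708-5p had 78 counts (20.4 CPM, 16.4 to 25.5) in the control-labelled library and 118 counts (52.8 CPM, 44.1 to 63.3) in the iFIRKO-labelled library. It thus had more counts in the shallower library, and the ratio was 2.59 (1.93 to 3.49). miR-708-3p had 49 counts (12.8 CPM, 9.71 to 17.0) and 51 counts (22.8 CPM, 17.4 to 30.0). Its levels did not overlap, but the interval of its ratio, 1.78 (1.18 to 2.69), reached below 1.5. Both arms belonged to the class from 10 to 100 counts, whose median ratio was 2.01. In that class 998 of 1350 miRNAs had a lower ratio than miR-708-5p and 520 had a lower ratio than miR-708-3p, so values like these were common in the class. The mean count of miR-708-5p, 98, lay at the upper limit of the class, so its position depends on that limit. Its log2 ratio of 1.37 was above the upper quartile, 0.98, of the class from 100 to 1000 counts.

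**Figure D1:**
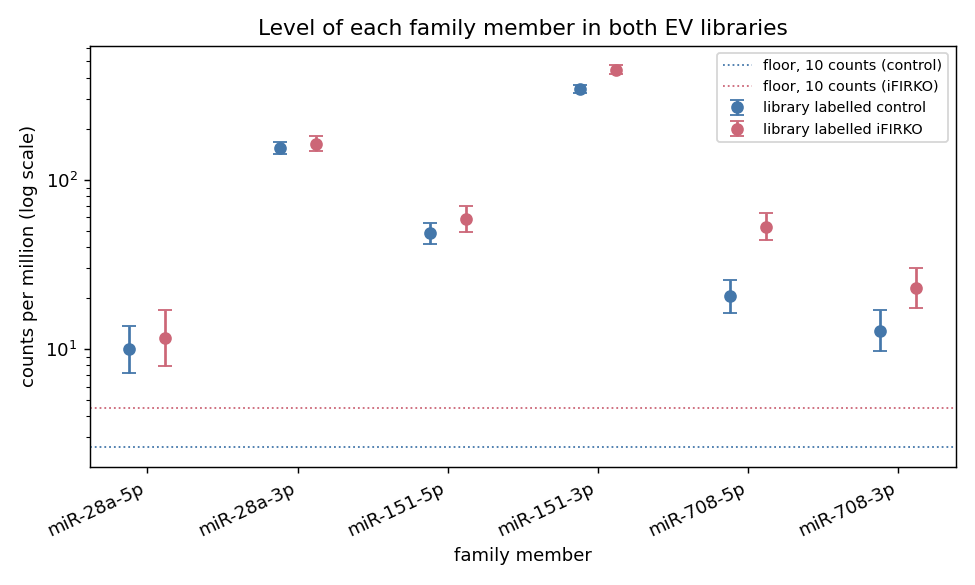
Level of each member in CPM on a log axis, with points for the control-labelled (blue) and the iFIRKO-labelled (red) library, 95% Wilson intervals as bars and the 10-count floor of each library as dotted lines. miR-151-3p is highest in both libraries at 345 and 448 CPM, and the libraries are separated beyond counting error for miR-151-3p and both arms of miR-708.

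**Figure D2:**
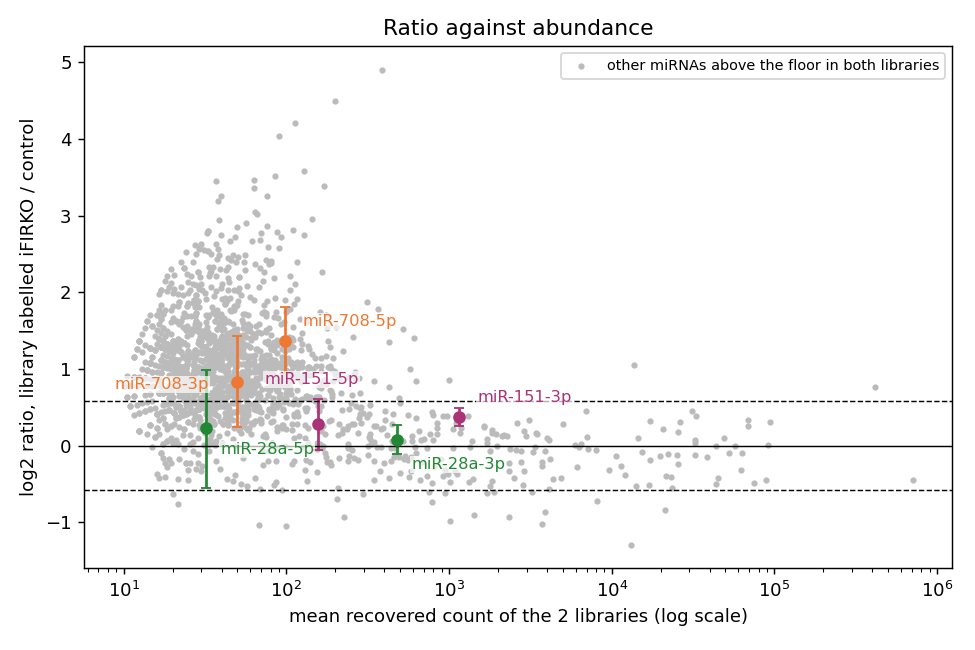
Log2 ratio of the iFIRKO-labelled to the control-labelled library against the mean recovered count on a log axis, for miRNAs above the floor in both libraries (grey) and the 6 members (coloured by hairpin, with 95% intervals). Dashed lines mark 1.5-fold in either direction. The arms of miR-708 lie within the broad cloud of miRNAs from 10 to 100 counts, and miR-151-3p lies in the upper part of the narrower cloud over 1000 counts.

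A read stands for a whole mature miRNA, so CPM was compared between members without scaling by length. Whether the library preparation captured different sequences equally was not tested. The order of members, and the arm use below, are therefore those of counts. In the control-labelled library the order of levels was miR-151-3p, miR-28a-3p, miR-151-5p, miR-708-5p, miR-708-3p and miR-28a-5p, and the highest level was 34.6 times the lowest. The intervals of miR-708-5p and miR-708-3p overlapped, as did those of miR-708-3p and miR-28a-5p, and the other neighbours were separated. In the iFIRKO-labelled library the order was the same and the range was 38.5-fold. There miR-151-5p and miR-708-5p overlapped, whereas the other neighbours were separated, miR-708-3p and miR-28a-5p by a narrow margin. miR-151-3p made up 58.4% of the family counts (95% Wilson interval 56.3 to 60.4) in the control-labelled library and 59.2% (56.8 to 61.5) in the iFIRKO-labelled library. The share of the 2 miR-28a arms was 27.8% (26.0 to 29.7) and 23.1% (21.1 to 25.1), and that of the 2 miR-708 arms was 5.63% (4.75 to 6.66) and 10% (8.66 to 11.5). The shares of miR-28a and miR-708 in the family thus differed beyond counting error, in opposite directions, and the intervals for miR-151-3p overlapped. Shares of a fixed total move against each other. On the deposited scale the summed ratio was 1.06 (0.933 to 1.21) for miR-28a and 2.27 (1.80 to 2.89) for miR-708, so neither hairpin was below 1.

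Members were next compared with each other, since the quotient of 2 ratios does not depend on how the libraries are scaled. Abundance does not drop out in the same way, because the median ratio of all miRNAs differed between abundance classes. Its part in these quotients was not tested. Of the 15 pairs, 6 had a quotient whose interval excluded 1, and with 15 intervals no correction for their number was made. The ratio of miR-28a-5p was 0.452 times that of miR-708-5p (95% exact interval 0.243 to 0.835), although both arms carry the same seed. The ratio of miR-28a-3p was 0.408 times that of miR-708-5p (0.294 to 0.565), 0.593 times that of miR-708-3p (0.384 to 0.916) and 0.812 times that of miR-151-3p (0.693 to 0.950). miR-151-5p and miR-151-3p had 0.471 times (0.322 to 0.688) and 0.502 times (0.368 to 0.683) the ratio of miR-708-5p. The other 9 intervals included 1, among them those of the 2 arms of each hairpin.

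Arm use was then examined in each hairpin. miR-28a and miR-151 were dominated by the 3p arm and miR-708 by the 5p arm, in both libraries. miR-28a had 15.5 counts of the 3p arm per count of the 5p arm in the control-labelled library (95% interval 11.2 to 22.2) and 14.0 in the iFIRKO-labelled library (9.40 to 21.7). miR-151 had 7.15 (6.13 to 8.39) and 7.63 (6.36 to 9.23). For miR-708 the corresponding values were 0.628 (0.430 to 0.909) and 0.432 (0.305 to 0.605). Both arms were above the floor in both libraries for 610 hairpins, of which 44.3% were dominated by the 3p arm in the control-labelled library and 46.1% in the iFIRKO-labelled library, and 84.4% had the same dominant arm in both. A 3p share below that of miR-28a was found in 93.9% of the hairpins in either library.

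The 5p-to-3p ratio did not differ between the libraries beyond counting error in any of the 3 hairpins. Expressed as the iFIRKO-labelled over the control-labelled library, this contrast was 1.11 for miR-28a (95% exact interval 0.635 to 1.91), 0.937 for miR-151 (0.732 to 1.20) and 1.45 for miR-708 (0.868 to 2.43). The intervals leave room for changes in arm use of up to 1.91-fold for miR-28a and 2.43-fold for miR-708, whose minor arms had between 26 and 51 counts. Over the 610 hairpins the median absolute log2 contrast was 0.49, and it was 0.15 for miR-28a, 0.09 for miR-151 and 0.54 for miR-708.

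**Figure D3:**
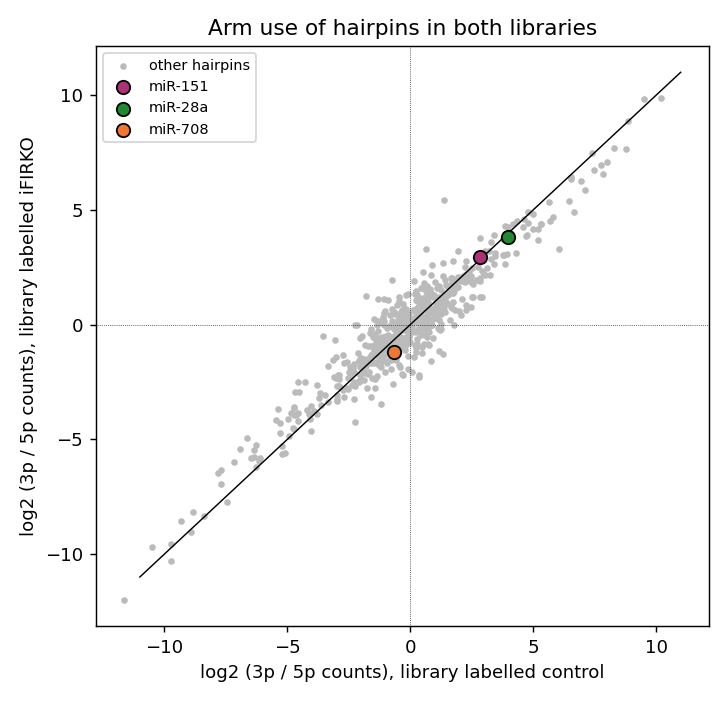
Log2 of 3p over 5p counts of each hairpin in the control-labelled library (x axis) and the iFIRKO-labelled library (y axis), for 610 hairpins with both arms above the floor. The line marks equal arm use, and the 3 family hairpins lie close to it, with miR-28a and miR-151 on the 3p side and miR-708 on the 5p side of 0.

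The size and in part the direction of the ratios depended on the scaling. With miR-148a-3p as the reference, as in the RT-PCR of the study, the ratio of miR-151-3p was 1.12, that of miR-28a-3p was 0.906 and that of miR-708-5p was 2.22. With TMM scaling, which lowered every log2 ratio by 0.85 and brought the median log2 ratio of all miRNAs to 0.029, miR-708-5p remained above 1 (1.43), miR-708-3p was at 0.984, and the arms of miR-28a and miR-151 were between 0.583 and 0.719. Each of these scalings applies 1 factor to every miRNA. The order of the members and the distance of their median from that of all miRNAs, -0.55 on the log2 scale, therefore cannot change between them. That distance also mixes abundances. The median log2 ratio of members and of all miRNAs was 0.83 and 1.01 from 10 to 100 counts, and 0.18 and 0.53 from 100 to 1000. Over 1000 counts it was 0.38, for miR-151-3p alone, and -0.07.

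**Figure D4:**
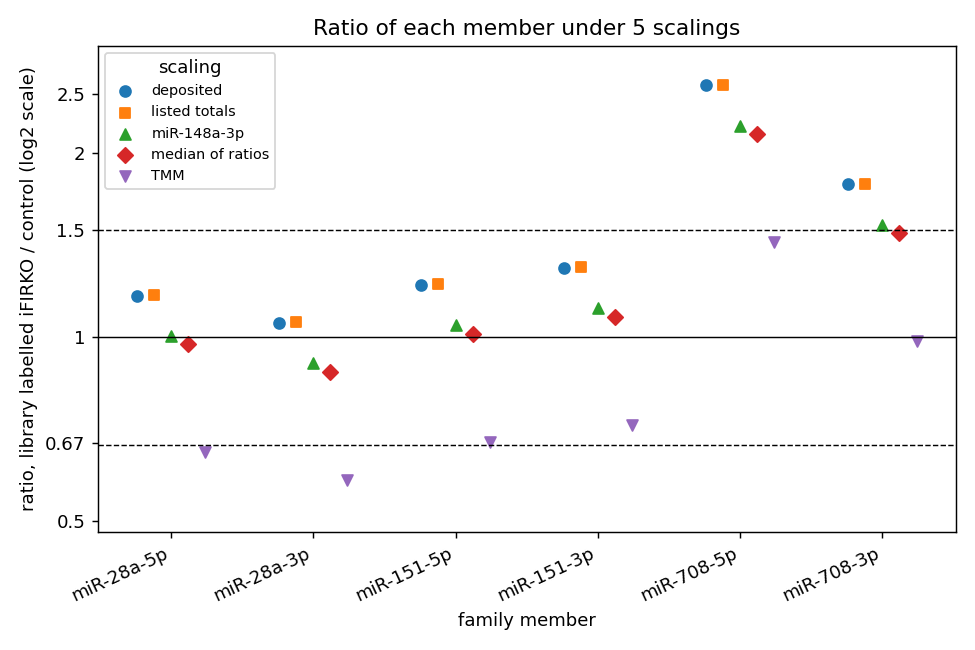
Ratio of the iFIRKO-labelled to the control-labelled library for each member on a log2 axis, under the deposited scale and 4 other scalings (marker shapes). Dashed lines mark 1.5-fold in either direction. miR-708-5p is above 1 under all 5 scalings, from 1.43 to 2.59, while each other member is below 1 under TMM.

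Other miRNAs were then set beside the family. The relatives of miR-28a were scarce, and how the authors divided reads between close relatives is not stated. miR-28b had 16 counts (4.19 CPM) in the control-labelled library and 18 counts (8.06 CPM) in the iFIRKO-labelled library, a ratio of 1.92 (0.926 to 4.03) whose interval included 1. miR-28c had 21 counts (5.50 CPM) in the control-labelled library and was at the floor of less than 4.48 CPM in the iFIRKO-labelled library, so no ratio is given.

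Of 12 arms of other hairpins described as LINE2-derived, 9 were listed, and the names miR-325-5p, miR-545-5p and miR-545-3p were not found. Of these 9, 6 were more than 1.5-fold higher and 1 was more than 1.5-fold lower in the iFIRKO-labelled library, with a median log2 ratio of 0.77, and with TMM scaling these counts were 2 and 3. Over all miRNAs the shares were 66.3% and 3.03% as deposited and 21.0% and 19.5% with TMM scaling, so the share of higher arms on the deposited scale was close to that of all miRNAs. miR-421-3p, the most abundant of them, had 206 CPM (788 counts) in the control-labelled and 155 CPM (347 counts) in the iFIRKO-labelled library, with a ratio of 0.753 (0.662 to 0.855). On the deposited scale its interval lay below 1, unlike that of any family member. Its other arm, miR-421-5p, went the other way on the deposited scale, from 12 to 35 counts, with a ratio of 4.99 (2.53 to 10.5). miR-374b-5p had 105 and 30 counts and a ratio of 0.488 (0.314 to 0.739), whereas miR-374b-3p had 56 and 64 counts and a ratio of 1.95 (1.34 to 2.85). miR-374b and miR-374c lie on opposite strands of a shared locus, and how their reads were divided is not stated. In miR-421 and miR-374b the intervals of the 2 arms did not overlap. They did overlap in miR-374c (5p 1.08 to 5.93, 3p 0.554 to 1.61) and miR-493 (5p 0.755 to 3.87, 3p 1.93 to 5.13). The same held for each of the 3 family hairpins, so overlapping arms were not particular to the family.

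The miRNAs closest to the leading arm of each hairpin were found as those with the smallest difference in log2 ratio among miRNAs within 2-fold of its mean count. With 2 libraries this likeness rests on 1 ratio. For miR-151-3p they were miR-206-3p (1.30), miR-149-5p (1.31) and miR-425-3p (1.29), out of 66 candidates. For miR-28a-3p they were miR-674-5p (1.05), miR-215-3p (1.05) and miR-210-3p (1.06), out of 112 candidates. For miR-708-5p they were miR-6936-5p (2.58), miR-6236 (2.59) and miR-7220-5p (2.59), out of 552 candidates.

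Markers of cells that shed vesicles into the blood differed between the libraries as well. By the labels as given, all 6 erythroid miRNAs were lower in the iFIRKO-labelled library on the deposited scale, with ratios from 0.409 to 0.760, and together made up 5.35% of the control-labelled and 3.56% of the iFIRKO-labelled library. All 4 liver miRNAs were higher on the deposited scale, with ratios from 1.35 to 1.71, and lower with TMM scaling, and they made up 12.1% and 20.2%. The 4 platelet and leukocyte miRNAs had ratios from 0.799 to 0.964 and the 2 endothelial miRNAs from 0.684 to 0.710. The ratio of miR-151-3p fell between these lists, close to those of the liver miRNAs miR-122-3p (1.35) and miR-192-5p (1.36). The part of these shifts in the values of the family was not tested, and in a pooled serum sample more vesicles of a cell type and more miRNA per vesicle cannot be told apart.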

How the data were processed

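Small RNA libraries were made by the authors from pooled serum EV RNA with a QIAseq miRNA kit, sequenced on a NextSeq500 instrument and analysed on the GeneGlobe Data Analysis Center. The submitters' processing notes name mm10. The aligner, the miRNA release and the use of molecular identifiers are not given in the sources used here. The deposited values are a normalized signal per miRNA. In both libraries 100% of them were whole counts divided by 1 constant, within the rounding of the printed digits, and this constant was taken as the depth. No count from 2 to 9 occurred, and the lowest value was read as fewer than 10 counts.

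Ratios were computed on the deposited scale without a pseudocount. Their intervals come from the Clopper-Pearson interval of the iFIRKO-labelled share of both counts, those of levels and shares are Wilson intervals, and those of contrasts are exact conditional intervals of an odds ratio (SciPy 1.17.1, Python 3.11.15). The intervals of ratios and contrasts were checked on simulated data, and the Wilson intervals were not. With 1 library per group no p-value was computed. Alternatives were listed totals, the median of ratios over miRNAs averaging 100 counts or more, TMM (edgeR 4.0.16, R 4.3.3), miR-148a-3p as reference, 1 CPM added, filters at a mean count of 10 and 100, and a 2-fold threshold. All 6 members were named. The lists of relatives, other LINE2-derived miRNAs and cell markers, like the members, were chosen with earlier results of these data known. The nearest miRNAs followed the rule given with them.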

Additional observations from a re-analysis of the deposited data

How the results depend on the processing

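With a single library in each group, none could be left out. No paired analysis was possible because neither group had more than 1 library. Listed totals, 1 CPM added and a filter at 10 counts on average left each value within its counting error and each count of members as it was, and 1 CPM added did so for the 3 arm contrasts. The summed ratio of the family was 1.10 with miR-148a-3p as reference, 1.07 with the median of ratios and 0.709 with TMM scaling, which turned its direction. TMM scaling also placed 5 of the 6 members below 1. Among them were miR-151-3p (0.719) and miR-708-3p (0.984, close to 1), whose intervals lay above 1 on the deposited scale. With TMM scaling 0 members were over 1.5-fold higher and 2 over 1.5-fold lower (miR-28a-5p at 0.647 and miR-28a-3p at 0.583). The median log2 ratio was then -0.52, while 21.0% of all miRNAs were higher and 19.5% lower. With the median of ratios 1 member was over 1.5-fold higher, against 51.8% of all miRNAs, and the median log2 ratio was 0.064. These shifts follow from 1 factor applied to every miRNA. At a 2-fold threshold 1 member, miR-708-5p, was higher. The share of all miRNAs past 2-fold was not computed, and the median ratio of the abundance class of miR-708-5p was 2.01. A mean count of at least 100 left 3 members, removed both miR-708 arms and left 0 members over 1.5-fold higher. Of all miRNAs, 47.0% were over 1.5-fold higher from 100 to 1000 counts and 2.54% over 1000 counts. Depth limits miR-28a-5p and miR-708-3p most, with 26 to 51 counts.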
